A study of Rattus norvegicus with 12 samples.

Results

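The 4 genes described here are Tnfaip3, Nfkbia, Vcam1 and Traf2, a small group of feedback, target and adaptor genes around the transcription factor NF-κB. They were followed in RNA sequencing of primary rat oligodendrocyte precursor cells (OPCs), the dividing cells that mature into myelin-forming oligodendrocytes. They are 4 of 30562 annotated genes and 4 of the 13348 genes that were tested, those averaging 5 or more read pairs per library. Tnfaip3 and Nfkbia were named by their coordinates, and Vcam1 and Traf2 by the symbols that the study's table of cytokine-responsive genes gives. All 4 have an entry in that table and were located in the counts by matching its values. The group was chosen with earlier results of these data known.

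NF-κB is a family of dimeric transcription factors that is held in the cytoplasm by inhibitory IκB proteins. TNF-α and IL-1β receptors activate the IKK kinases through adaptor proteins and ubiquitin chains, IκB is then degraded, and the dimers enter the nucleus. Many of the genes they switch on encode inhibitors of the same pathway, which closes a negative feedback loop. Nfkbia encodes IκBα, the inhibitor that binds the dimers directly. Tnfaip3 encodes A20, a ubiquitin-editing enzyme that acts on the receptor complexes. Traf2 encodes an adaptor of the TNF receptor complex, and Vcam1 an adhesion molecule of the immunoglobulin family that binds integrins on leukocytes.

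The cells came from the cortex of newborn wild-type Sprague-Dawley rats of both sexes, pooled, by shaking OPCs off mixed glial cultures after microglia had been shaken off. Each of the 4 groups had 3 libraries. CTK-2 received 2 ng/mL of each of the cytokines IFN-γ, IL-1β and TNF-α. CTK2+GAL received the same cytokines and, 6 h later, 10 nM galinex (GAL), which activates the receptor GPR17. The GAL group received galinex without cytokines and CTL neither, with DMSO as the vehicle wherever galinex was not given, and RNA was collected 24 h later in differentiating medium. Replicates are numbered, but nothing says that they came from separate animals or cultures, so p-values measure only the spread between these samples. Because these are bulk cultures, a change in the number of cells that express a gene and a change in RNA per cell cannot be told apart.

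Library totals ranged from 2600797 read pairs in GAL replicate 1 to 8978185 in CTK2+GAL replicate 3. Of the oligodendrocyte lineage markers with a symbol, Pdgfra, the PDGF receptor of OPCs, was present in every group (415 ± 27.2 CPM in CTL, SD, n = 3). Replicate 3 of CTL and of GAL stood apart from the other libraries without cytokines. Irf1, an interferon-induced transcription factor, stood at 77.0 CPM in CTL replicate 3 and 65.3 CPM in GAL replicate 3, against 2.98 to 4.99 CPM in the other 4 libraries of these groups. Results of the 4 genes are therefore also given without these libraries.

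All 4 genes lie on the minus strand, and no exon of any other annotated gene overlaps theirs. In the annotation of the count tables (mRatBN7.2), Tnfaip3 (ENSRNOG00000049517) spans chr1:13709206-13725282 with 10 exons and 7564 bp of exon sequence. Nfkbia (ENSRNOG00000007390) is a compact gene at chr6:72858712-72861941, with 5 exons and 2027 bp. Vcam1 (ENSRNOG00000014333) lies at chr2:204038114-204057958 with 9 exons and 3690 bp, and Traf2 (ENSRNOG00000006238) at chr3:8341951-8366538 with 11 exons and 2162 bp.

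The sequences before the start of the 4 genes are shown because NF-κB binds DNA at a short element, the κB site, and the genes differed in how many matches they carried there. They are the 250 bases before the RefSeq start on the GRCr8 assembly, a later build than that of the counts, and run 5′ to 3′ on the gene's strand. Capitals mark matches to the κB consensus of 10 bases on either strand, with matches of both strands at the same bases counted once. The windows are chr1:15543980-15544229 for Tnfaip3, chr6:78597073-78597322 for Nfkbia, chr2:206742784-206743033 for Vcam1 and chr3:28764644-28764893 for Traf2, all on the minus strand.
Tnfaip3: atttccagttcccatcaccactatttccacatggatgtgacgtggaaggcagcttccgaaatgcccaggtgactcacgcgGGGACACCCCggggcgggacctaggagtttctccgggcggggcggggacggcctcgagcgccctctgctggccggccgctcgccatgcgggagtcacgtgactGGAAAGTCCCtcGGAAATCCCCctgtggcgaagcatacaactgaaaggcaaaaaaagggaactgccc
Nfkbia: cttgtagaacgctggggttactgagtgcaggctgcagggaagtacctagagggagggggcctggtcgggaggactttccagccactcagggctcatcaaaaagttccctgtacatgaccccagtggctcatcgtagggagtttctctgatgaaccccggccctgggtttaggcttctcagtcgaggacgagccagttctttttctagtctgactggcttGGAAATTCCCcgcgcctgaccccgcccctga
Vcam1: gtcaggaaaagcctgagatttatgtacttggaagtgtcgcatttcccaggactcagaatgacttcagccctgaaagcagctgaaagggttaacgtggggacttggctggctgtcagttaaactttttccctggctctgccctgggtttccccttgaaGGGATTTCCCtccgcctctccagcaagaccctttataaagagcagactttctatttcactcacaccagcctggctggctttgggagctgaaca
Traf2: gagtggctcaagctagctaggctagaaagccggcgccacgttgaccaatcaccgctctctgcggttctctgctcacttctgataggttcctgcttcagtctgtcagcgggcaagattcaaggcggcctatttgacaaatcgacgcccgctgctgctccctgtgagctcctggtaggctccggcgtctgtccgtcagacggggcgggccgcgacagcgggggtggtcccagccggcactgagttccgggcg

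Tnfaip3 carried 3 matches, at bases -170 to -161, -67 to -58 and -55 to -46 from the start. Nfkbia carried 1 match at -31 to -22 and Vcam1 1 match at -93 to -84. The Traf2 window held none, which says only that these letters are not in it. Over windows of 300 bases, from 250 before to 50 after the start, 7.51% of 33469 RefSeq promoters held at least 1 match. Of the 1380 genes with a symbol in the count tables and a promoter entry, 14.2% did. Of the NF-κB genes listed for this report, 25 had both a symbol and a promoter entry, and 11 of them held a match (44.0%). Among these were Nfkb1, Nfkb2, Nfkbiz, Bcl3, Tnip1, Traf3, Lcn2 and Irf1. A symbol exists here only for genes that the study called in CTK-2 against CTL. The other listed genes were not scanned, so this share does not describe the whole list. A match is a description of letters and not a measured binding site.

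The first comparison, CTK-2 with CTL, asks what the cytokines changed in OPCs. All 4 genes were higher in every CTK-2 library than in every CTL library, with Tnfaip3 rising most and Traf2 least. Values are CPM, read pairs scaled to the TMM-normalized library size, and a gene was called when the adjusted p was at most 0.05 and the absolute log2 fold change at least 0.59. By this rule 17.3% of tested genes were called and 11.5% were called higher, so a call alone does not set these genes apart.

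Tnfaip3 was close to the limit of detection without cytokines. It measured 2.58, 1.39 and 3.57 CPM in CTL replicates 1 to 3, which rest on 15, 7 and 22 read pairs. In CTK-2 it measured 53.5, 58.3 and 53.9 CPM. The CTK-2 libraries lay within a narrow band, while the CTL libraries spread widely around their low mean, with a coefficient of variation of 43.4% against 4.82%. The log2 fold change was 4.41 (SE 0.17, adjusted p = 1.4e-12), a 21.2-fold increase with a 95% interval of 16.5 to 27.4. It ranked 128th by fold change of the 1538 genes called higher.

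Nfkbia had a basal level. The CTL libraries held 17.4, 13.9 and 13.5 CPM, and the CTK-2 libraries 82.6, 81.0 and 78.9 CPM. The lowest CTK-2 library was thus far above the highest CTL library. The increase was 5.41-fold (95% interval 4.70 to 6.23, adjusted p = 1.4e-12), with a log2 SE of 0.097, and Nfkbia ranked 352nd by fold change among the genes called higher.

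Vcam1 measured 3.78, 5.37 and 5.35 CPM in CTL. It measured 55.0, 58.5 and 47.6 CPM in CTK-2. Its increase of 11.1-fold (95% interval 9.08 to 13.5, adjusted p = 1.4e-12, rank 212) lay between those of the feedback inhibitors Tnfaip3 and Nfkbia, and the intervals of the 3 genes did not overlap.

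Traf2 moved least. It measured 13.8, 17.9 and 16.5 CPM in CTL, and 30.7, 26.0 and 28.7 CPM in CTK-2. The groups did not overlap, but the closest libraries were near each other. The increase was 1.77-fold (95% interval 1.46 to 2.15, log2 fold change 0.83, SE 0.13, adjusted p = 6.3e-05), and the gene ranked 1160th by fold change. The lower end of its log2 interval, 0.55, lies under the threshold of 0.59. Over all tested genes, 25.2% had every CTK-2 library above every CTL library. Symbols, also those of Tnfaip3 and Nfkbia, were available only for genes that the study had called in this contrast. The calls of the 4 genes are therefore not independent of the choice. Those of Tnfaip3 and Nfkbia were also known when the group was chosen.

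**Figure D1:**
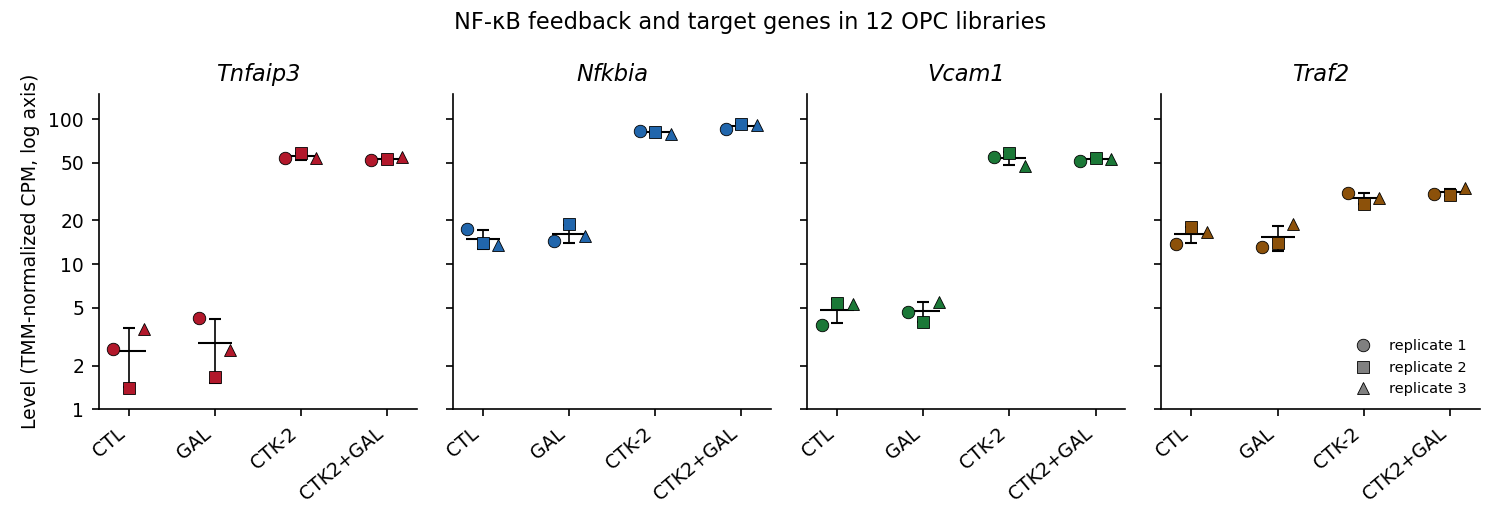
Level of each gene in the 12 libraries (TMM-normalized CPM on a log axis), by group. Symbols mark replicates 1 to 3, and the horizontal line and bar give the mean and SD of 3 libraries. Every library with cytokines lies above every library without them. The gap runs for Tnfaip3 from 4.27 to 51.9 CPM and for Traf2 from 18.9 to 26.0 CPM. Every CTK-2 library lay above every CTL library in 25.2% of tested genes, and every CTK2+GAL library above every GAL library in 25.5%. The share for all 12 libraries together was not computed.

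CTK2+GAL with GAL is the same cytokine contrast with galinex on both sides, and it shares no library with the first. Tnfaip3 measured 4.27, 1.67 and 2.58 CPM in GAL and 51.9, 52.7 and 54.7 CPM in CTK2+GAL. Nfkbia measured 14.4, 18.8 and 15.6 CPM in GAL and 85.1, 92.3 and 91.3 CPM in CTK2+GAL. For both inhibitors the groups were again far apart, and the highest GAL value of Tnfaip3 came from the shallowest library, where it rests on 11 read pairs. Vcam1 measured 4.66, 4.02 and 5.50 CPM in GAL and 51.3, 54.0 and 53.1 CPM in CTK2+GAL. Traf2 measured 13.2, 13.9 and 18.9 CPM in GAL and 30.5, 30.0 and 33.5 CPM in CTK2+GAL. No library of the cytokine group was as low as any GAL library for these genes, which was so for 25.5% of all tested genes.

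The sizes of the increases stood in the same order as in the first contrast. The log2 fold changes were 4.39 for Tnfaip3 (SE 0.18, adjusted p = 2.9e-12), 3.47 for Vcam1 (SE 0.14, adjusted p = 2.7e-12), 2.43 for Nfkbia (SE 0.097, adjusted p = 2.0e-12) and 1.0 for Traf2 (SE 0.13, adjusted p = 7.6e-06). All 4 were called, as were 17.4% of tested genes, 11.7% of them in the higher direction. The difference between both contrasts is the interaction of cytokines and GAL. For Tnfaip3 it was -0.02 on the log2 scale (95% interval -0.79 to 0.75), for Nfkbia -0.01 (-0.31 to 0.29), for Vcam1 0.00 (-0.49 to 0.50) and for Traf2 0.18 (-0.23 to 0.58). None passed, and the intervals run from 0.580-fold to 1.69-fold for Tnfaip3 and from 0.809-fold to 1.23-fold for Nfkbia.

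Galinex alone, GAL against CTL, changed none of the 4 genes beyond the spread between libraries. Their libraries overlapped in every case. The log2 fold changes were -0.04 for Tnfaip3 (95% interval -0.75 to 0.68), 0.16 for Nfkbia (-0.11 to 0.42), -0.03 for Vcam1 (-0.50 to 0.45) and -0.03 for Traf2 (-0.34 to 0.29). The contrast called 0% of tested genes with edgeR and 0 with DESeq2, while 574 genes had an unadjusted p under 0.05. At the low level of Tnfaip3 the interval runs from 0.594-fold to 1.60-fold, so a change of moderate size was not detectable at this depth.

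Galinex on top of cytokines, CTK2+GAL against CTK-2, is the comparison in which the genes are abundant and the intervals narrowest. Tnfaip3 differed by -0.05 on the log2 scale (95% interval -0.27 to 0.16) and Vcam1 by -0.02 (-0.21 to 0.17). Traf2 differed by 0.15 (-0.10 to 0.40). For these genes the libraries overlapped and any change above 1.32-fold lies outside the intervals. Nfkbia differed in that its 3 CTK2+GAL libraries (85.1 to 92.3 CPM) all lay above its 3 CTK-2 libraries (78.9 to 82.6 CPM). Its log2 fold change was 0.15 (95% interval -0.0045 to 0.31), with an unadjusted edgeR p of 0.056 and an adjusted p of 1.0, so it did not pass. Such a separation in the higher direction occurred in 5.72% of tested genes, and 0% were called with edgeR and 0 with DESeq2, with 545 genes under an unadjusted p of 0.05. Nfkbia had the smallest p of the listed NF-κB genes in this comparison.

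**Figure D2:**
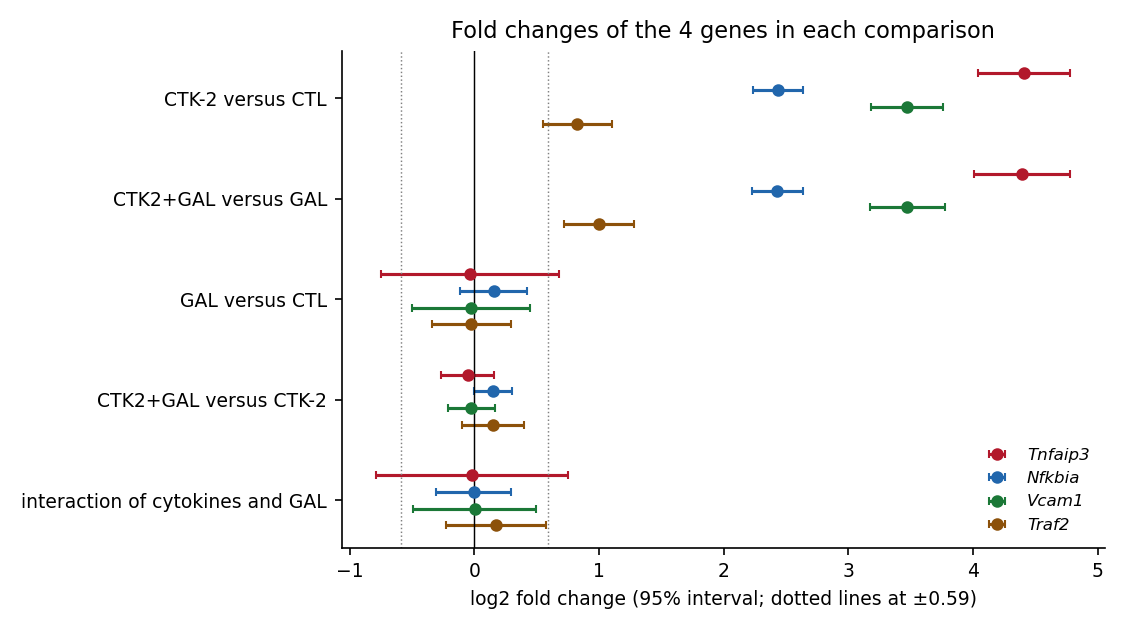
Log2 fold change of each gene in the 5 comparisons, with 95% intervals from the edgeR fit of all 12 libraries and dotted lines at the threshold of 0.59. The cytokine contrasts separate Tnfaip3, Vcam1, Nfkbia and Traf2 in this order, and every interval of the galinex contrasts and the interaction includes 0.

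Over the 4 groups the levels of each gene therefore formed a low and a high pair. The means of Tnfaip3 were 2.51 ± 1.09 CPM in CTL, 2.84 ± 1.32 in GAL, 53.1 ± 1.45 in CTK2+GAL and 55.3 ± 2.66 in CTK-2 (SD, n = 3). For Nfkbia they ran from 14.9 ± 2.14 CPM in CTL over 16.3 ± 2.26 in GAL and 80.9 ± 1.85 in CTK-2 to 89.6 ± 3.87 in CTK2+GAL. For Vcam1 the order was GAL (4.72 ± 0.74 CPM), CTL (4.83 ± 0.91), CTK2+GAL (52.8 ± 1.34) and CTK-2 (53.7 ± 5.56). Traf2 followed with GAL (15.3 ± 3.12 CPM), CTL (16.1 ± 2.10), CTK-2 (28.5 ± 2.39) and CTK2+GAL (31.3 ± 1.86). Neighbours within a pair did not differ by the test, and all pairs of a group with and a group without cytokines did, including CTK2+GAL against CTL (16.8% of tested genes called) and CTK-2 against GAL (18.2%). The ratio of the lowest library with cytokines to the highest without was 12.2 for Tnfaip3, 8.66 for Vcam1, 4.21 for Nfkbia and 1.37 for Traf2.

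Divided by the length of all annotated exons, the levels of different genes can be set roughly beside each other. The lengths of the transcripts that the cells expressed were not measured, so the order and ratios below depend on the annotation. In CTL, Traf2 and Nfkbia stood at 7.43 ± 0.97 and 7.36 ± 1.06 CPM per kb, Vcam1 at 1.31 ± 0.25 and Tnfaip3 at 0.33 ± 0.14 (SD, n = 3). In CTK-2 the order was Nfkbia at 39.9 ± 0.91, Vcam1 at 14.6 ± 1.51, Traf2 at 13.2 ± 1.10 and Tnfaip3 at 7.31 ± 0.35 CPM per kb. Nfkbia thus remained the more abundant of both feedback inhibitors per length. The ratio of Nfkbia to Tnfaip3 per kb had a median of 25.1 in CTL (lowest 14.1, highest 37.3) and of 5.46 in CTK-2 (5.18 to 5.76). In CTK2+GAL it lay between 6.12 and 6.53. The difference of Nfkbia between these groups did not pass, the ratio was not tested, and its spread over other gene pairs was not computed. These ratios are given as a description.

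The libraries that stood apart among the controls were compared with the other replicates in these 4 genes. In CTL, replicate 3 held the highest level for 1 of the 4 genes, and in GAL for 2 of 4, against 34.8% and 33.6% of all tested genes and 60.5% and 54.0% of the genes called higher in CTK-2 against CTL. Replicate 3 over the mean of replicates 1 and 2 was 1.80 for Tnfaip3, 0.860 for Nfkbia, 1.17 for Vcam1 and 1.05 for Traf2 in CTL. In GAL the same ratios were 0.868, 0.945, 1.27 and 1.40. None of the 4 genes exceeded a ratio of 1.5 in both groups, whereas 5 of the 30 listed NF-κB genes did. These were Irf1 (19.3 in CTL and 17.0 in GAL), Csf1 (3.40 and 3.41), Cflar (2.50 and 2.75), Tnfrsf1b (2.11 and 6.16) and Rnf31 (1.52 and 1.60), named after their values were seen, and Tnfrsf1b rests on few counts.

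Without both of these libraries the cytokine response of the 4 genes was computed again. In CTK-2 against CTL the log2 fold change became 4.76 for Tnfaip3, 2.36 for Nfkbia, 3.57 for Vcam1 and 0.86 for Traf2. In CTK2+GAL against GAL it became 4.42, 2.37, 3.64 and 1.21 in the same order. All were called.

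**Figure D3:**
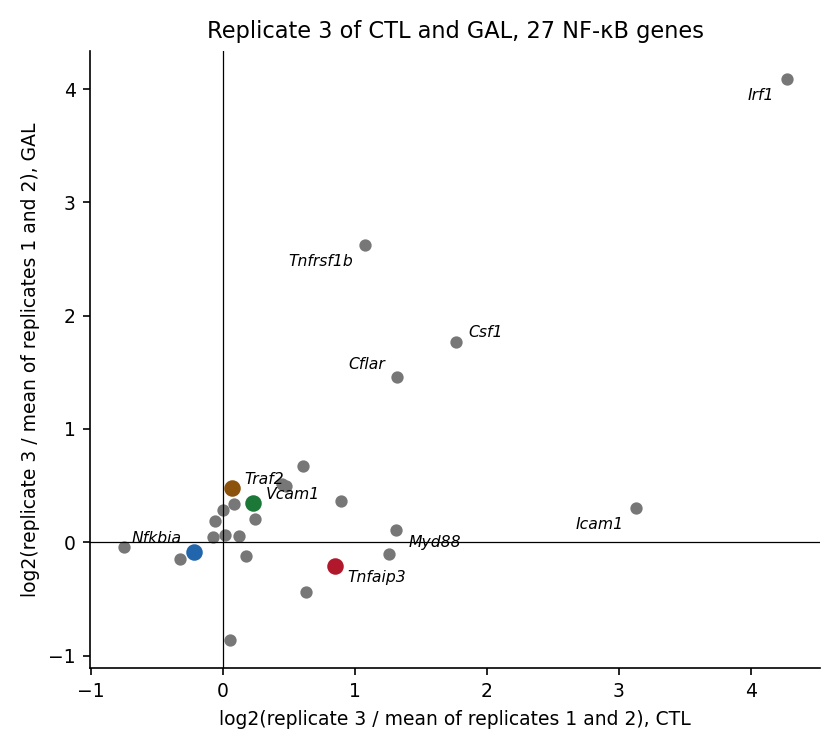
Log2 ratio of replicate 3 to the mean of replicates 1 and 2 in CTL (x axis) and GAL (y axis) for 27 listed NF-κB genes, with 3 genes left out because a library or group stood at 0. Irf1 lies far out on both axes at 19.3-fold and 17.0-fold, and none of the 4 coloured genes lies above 1.5-fold on both axes.

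The wider pathway was described through lists of subunits, inhibitors, receptor complexes and targets. Of 85 listed genes, 30 had a symbol and were tested. Since a symbol exists here only for genes that the study called in CTK-2 against CTL, the count of 30 genes called higher and 0 lower in that contrast follows from the choice. Their median on the log2 scale was 1.90, against 0.00 over all tested genes. In CTK2+GAL against GAL, 29 of 30 were called higher and 0 lower, against 11.7% of all tested genes called higher, with a median of 1.85 against 0.01. This contrast uses other libraries but the same cytokines, and the genes had been chosen for their call under them, so neither this count nor those of the single lists that follow are independent evidence of a direction. The remaining gene, Rbck1, a component of the linear ubiquitin ligase complex, had a log2 fold change of 0.57 there (SE 0.077, adjusted p = 1.0e-05), under the fold threshold. Bcl3, Birc3, Icam1, Lcn2 and Tnfrsf1b averaged under 5 read pairs per library without cytokines. They passed the filter only through the libraries with cytokines, so the filter as well as the symbol favoured their calls in the higher direction.

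Among the NF-κB subunits, 3 of 5 listed genes had a symbol, and all 3 were called higher in both cytokine contrasts. Relb, a subunit of the non-canonical pathway, rose from 3.36 ± 0.19 to 34.4 ± 2.91 CPM (log2 fold change 3.35, SE 0.16), and Nfkb2, which encodes the precursor of its partner p52, from 2.13 ± 0.83 to 22.2 ± 1.35 CPM (log2 fold change 3.34, SE 0.20). Nfkb1, which encodes p105 and p50, rose less, from 31.1 ± 1.54 to 59.4 ± 7.07 CPM. Map3k14, the kinase NIK that acts in the non-canonical pathway, was the 1 gene of 11 in the IKK list with a symbol and rose from 8.12 ± 0.47 to 16.8 ± 0.90 CPM.

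Of the IκB family, 3 of 6 genes had a symbol and were called higher in both contrasts. Besides Nfkbia these were Bcl3, a nuclear IκB protein, and Nfkbiz. Bcl3 had 1 read pair in all CTL libraries together and 31.5 ± 4.73 CPM in CTK-2, a ratio of 536 with a 95% counting interval of 95.7 to 21209. With 0 counts in the GAL libraries, CTK2+GAL was at least 150-fold higher, taking 3 counts over the group as the floor. Nfkbiz rose from 0.99 ± 0.30 to 3.04 ± 0.57 CPM (adjusted p = 0.0036). Intervals and floors cover counting error only.

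Of the ubiquitin editors and other negative regulators, 6 of 13 had a symbol, and all 6 were called higher in both contrasts. Their median in CTK-2 against CTL was 1.25 on the log2 scale. Tnfaip3 had the highest value of them. Cyld, a deubiquitinase, rose from 30.4 ± 5.75 to 77.0 ± 3.01 CPM, and Tnip1, which encodes an A20-binding protein, from 40.6 ± 1.05 to 65.7 ± 3.94 CPM (log2 fold change 0.70, SE 0.076). Traf3, an adaptor that restrains NIK, rose from 41.5 ± 5.81 to 94.5 ± 2.30 CPM.

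In the list of TNF receptors and their complex, to which Traf2 belongs, 9 of 15 genes had a symbol. All 9 were called higher in CTK-2 against CTL and 8 in CTK2+GAL against GAL. Cflar, an inhibitor of caspase-8, rose from 4.77 ± 2.81 to 26.2 ± 3.02 CPM (log2 fold change 2.41, SE 0.26). Ripk1, the kinase of this complex, rose from 28.4 ± 5.71 to 67.3 ± 4.37 CPM, and Birc2, a ubiquitin ligase that binds Traf2, from 30.3 ± 0.14 to 55.1 ± 1.57 CPM. The log2 fold change of Traf2, 0.83, was below the median of 1.23 of this list. Myd88, the adaptor of the IL-1 receptor and the 1 gene of 13 in its list with a symbol, rose from 3.03 ± 1.73 to 8.74 ± 2.22 CPM.

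In the TRAF family itself, 3 of 7 genes had a symbol. Traf4 rose from 244 ± 18.2 to 373 ± 10.9 CPM (log2 fold change 0.61, SE 0.067). All 3 were called higher in both contrasts, with Traf3 at 1.18 and Traf2 at 0.83 on the log2 scale in CTK-2 against CTL.

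Of the target genes outside the chemokines, 7 of 22 had a symbol, and all 7 were called higher in both contrasts. Icam1, the other adhesion molecule among them, rose from 0.66 ± 0.83 to 19.4 ± 3.90 CPM (log2 fold change 4.74, SE 0.37), which rests on 12 read pairs in CTL. Gadd45b, a stress response gene, rose from 1.42 ± 0.46 to 12.1 ± 1.32 CPM. Lcn2, which encodes lipocalin-2, had 3 read pairs in CTL and 3.70 ± 1.52 CPM in CTK-2, a ratio of 20.6 with a 95% counting interval of 6.71 to 103. Itga9, which encodes an integrin subunit that binds Vcam1, was the 1 of 4 receptor genes with a symbol and rose from 7.72 ± 1.88 to 23.8 ± 2.06 CPM (log2 fold change 1.60, SE 0.16). It reached 23.8 ± 2.49 CPM in CTK2+GAL.

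In the comparisons of galinex none of the 30 genes was called. The smallest p in GAL against CTL belonged to Tnfrsf1a, a TNF receptor, with a log2 fold change of -0.13 (SE 0.090, 0.16 as the unadjusted p of the edgeR model, adjusted p = 1.0). In the interaction it belonged to Rbck1, with -0.16 (SE 0.11, 0.15 as the unadjusted p of the edgeR model, adjusted p = 1.0), where 0% of tested genes were called with edgeR, 0 with DESeq2, and 376 had an unadjusted p under 0.05.

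**Figure D4:**
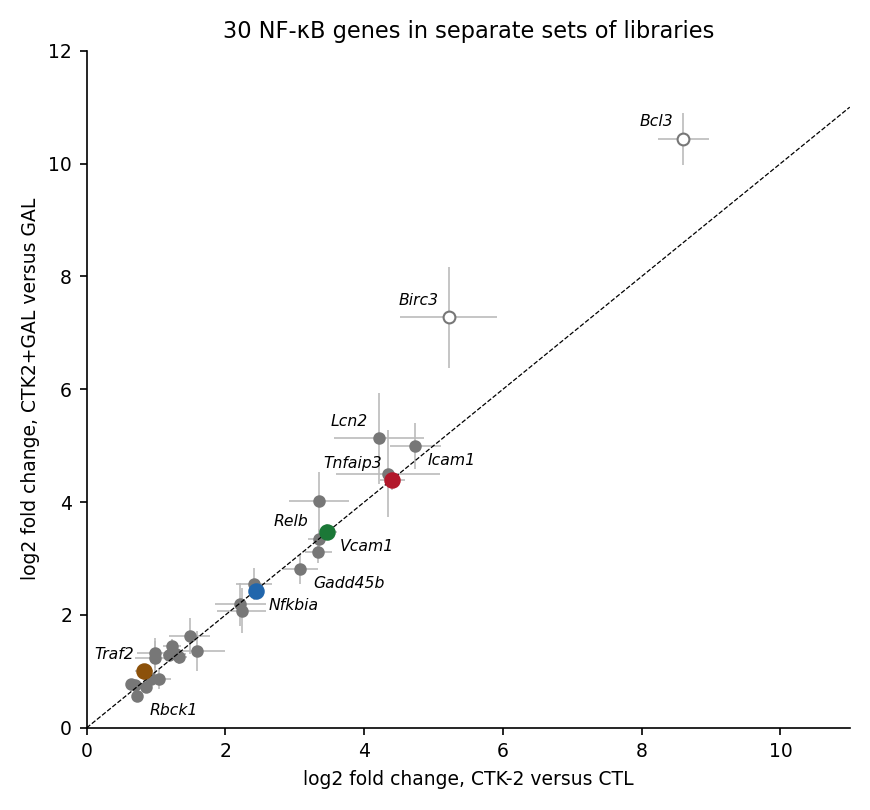
Log2 fold change of 30 listed NF-κB genes in CTK-2 versus CTL (x axis) and CTK2+GAL versus GAL (y axis), with bars of 1 SE and a dashed line of equality. Coloured points are the 4 genes, at 4.41, 3.47, 2.44 and 0.83 on the x axis, and open points are Bcl3 and Birc3, whose fitted values depend on the prior count because the groups without cytokines held 0 or 1 read pair. The filled point of Lcn2 depends on the prior count as well, with 3 read pairs in CTL and 1 in GAL.

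The genes around the 4 loci were examined in the same fit, to see whether neighbours on the chromosome differed as well. Within 500 kb, 56 other tested genes were found, and 5 of them were called higher in CTK-2 against CTL (8.93%, against 11.5% of all tested genes) and 0 lower. Around Tnfaip3, 1 neighbour was tested, at 305 kb, and it was not called. Of 11 neighbours of Nfkbia, 0 were called, and their log2 fold changes ran from -0.44 to 0.43. Of 10 neighbours of Vcam1, Cdc14a, which encodes a phosphatase, was called, at a distance of 168 kb (log2 fold change 1.09). The Traf2 region is denser, with 34 tested neighbours of which 4 were called, among them Nrarp (log2 fold change 3.03), a regulator of Notch signalling at 347 kb, and the potassium channel gene Kcnt1 (3.31). The gene only 75 bp from Traf2 had a log2 fold change of -0.07 (adjusted p = 0.61). Cdc14a, Nrarp and Kcnt1 were chosen after their values were seen.

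**Figure D5:**
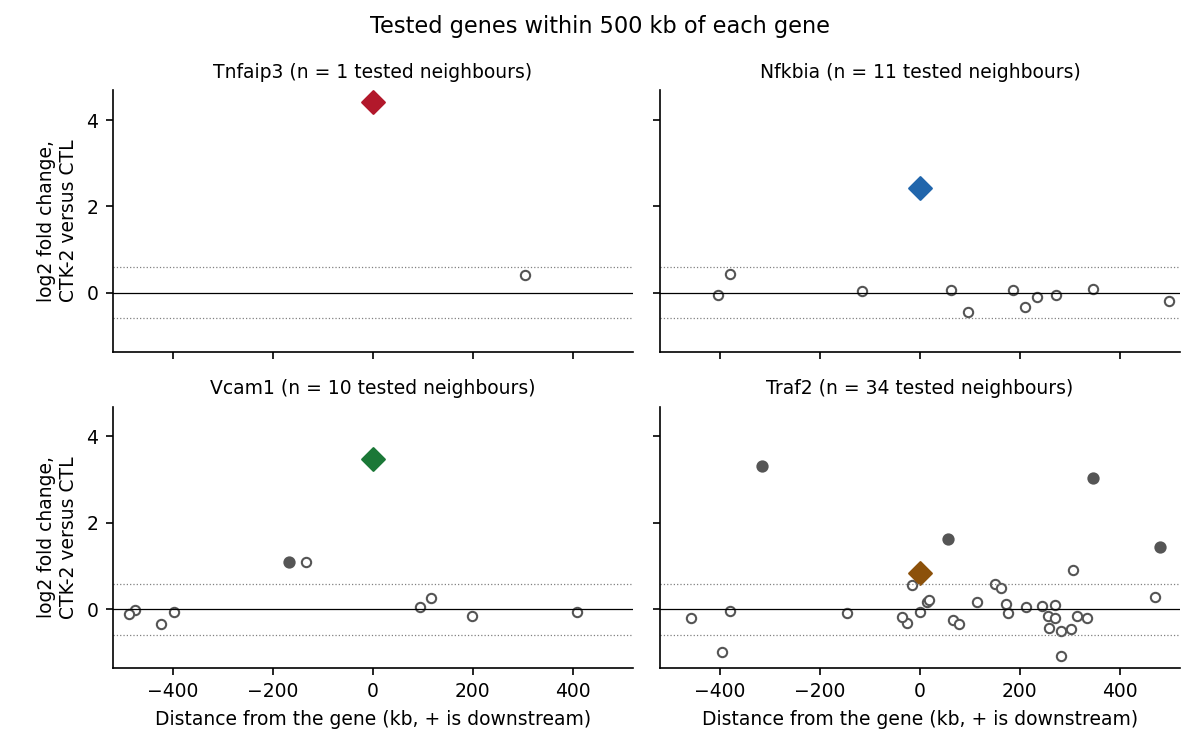
Response to cytokines (log2 fold change of CTK-2 over CTL) of tested genes within 500 kb of each of the 4 genes, by distance from it in kb along its own direction. Diamonds are the 4 genes, filled points are called neighbours (0, 0, 1 and 4) and open points the others, and dotted lines mark 0.59.

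The genes most alike in pattern were found by the root mean square difference of log2 CPM, each gene centred on its mean over the 12 libraries, among genes with a symbol. For Nfkbia they were Rgs2 (0.164), Cdk6 (0.206) and Scara3 (0.220), and for Vcam1 Slc4a1 (0.194), Acot1 (0.196) and Pml (0.200). For Tnfaip3 the nearest were farther away, with C7 at 0.354, Tgm2 at 0.361 and Stx11 at 0.361. Traf2 had the nearest companions, Pnpt1 (0.116), Sgip1 (0.117) and Itm2b (0.124). Over all tested genes, 893 lay within 0.3 of Traf2, 26 within 0.3 of Nfkbia and of Vcam1, and 1 within 0.3 of Tnfaip3. The measure is not scaled to the size of a change, so a gene that changes little, as Traf2 did, lies near more genes. These counts are therefore no measure of a more closely shared pattern. Low genes are drawn towards each other on this scale by the prior count, and Slc4a1 stood at 0 in CTL. C7, Tgm2 and Stx11 were also low there, with means of 0.054, 0.23 and 0.40 CPM.

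Markers of other cell types could be examined only where they had a symbol, that is among genes already called by the study in CTK-2 against CTL, so their calls in that contrast follow from the choice and the other listed markers were not analysed here. Of 13 microglial markers, 5 had a symbol (Csf1r, P2ry12, C1qc, Ptprc and Spi1). Their summed level lay between 2.24 and 10.9 CPM in CTL, 3.10 and 10.7 in GAL, 19.8 and 26.6 in CTK-2, and 21.8 and 22.7 in CTK2+GAL, with replicate 3 highest in CTL and GAL. P2ry12 rose from 2.97 ± 1.68 CPM in CTL to 9.99 ± 0.82 in CTK-2, while Spi1 stood at 0 in 4 and Ptprc in 3 of the 6 libraries without cytokines.

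Kdr, the 1 endothelial marker of 7 with a symbol, lay between 0.99 and 1.30 CPM in CTL, 0.33 and 1.55 in GAL, 3.97 and 7.78 in CTK-2 and 5.33 and 7.64 in CTK2+GAL. Endothelial cells are a known site of Vcam1 expression. Of 9 markers of pericytes and fibroblasts, Cspg4 and Col1a2 had a symbol. Cspg4, which OPCs express as well, rose from 136 ± 19.3 to 545 ± 32.7 CPM and Col1a2 from 1.19 ± 0.46 to 7.08 ± 0.82 CPM. Aldoc, the 1 of 8 astrocyte markers, fell from 258 ± 28.3 to 155 ± 2.42 CPM, and Tubb3, the 1 of 6 neuronal markers, rose from 85.2 ± 3.67 to 171 ± 16.8 CPM. Of the markers with a symbol, Ptprc and Spi1 were the ones that stood at 0 in any library. The part of other cell types in the levels of the 4 genes was not tested. In the study's own staining of a single OPC preparation, few cells were GFAP-positive and no Iba1-positive cells were detectable. For this protocol the paper also cites earlier work of its group, which found few other cells, mostly astrocytes, and negligible microglia.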

How the data were processed

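RNA was sequenced in 12 libraries of primary rat OPC cultures, 3 each of CTL, GAL, CTK-2 and CTK2+GAL, grouped by the labels. The deposited counts are whole read pairs per gene, neither normalized nor filtered by the authors. Per the file headers they were made with featureCounts 2.0.0 on Ensembl release 112 and mRatBN7.2, after FastQC and STAR. A pair was counted only in the reverse orientation with both mates aligned, and chimeric, multi-mapping or duplicate-marked pairs were dropped. Totals ranged from 2600797 to 8978185.

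Genes averaging 5 or more counts were normalized by TMM and fitted with edgeR 4.0.16 (quasi-likelihood, R 4.3.3) with 4 group means. Benjamini-Hochberg adjustment ran over all 13348 tested genes. The SE was derived from F, as the absolute value of the log2 ratio over the root of F. The calls were also tested on counts simulated with the dispersions of these data. The simulation held no shared deviation of replicate 3 and far fewer changed genes than were called here. It therefore cannot show how the calls behave under either, and no support is drawn from it. The members and lists were chosen with earlier results of these data known. Named genes are the members, the 4 genes with the smallest adjusted p of each list, all TRAF and Vcam1 receptor genes with a symbol, the smallest p in each galinex comparison, the 3 genes most alike to each member, and the leading marker of each cell type. Symbols came from matching the means and fold changes of the study's table to the counts, which gave 1 gene for 1772 of 1786 entries. Of 1755 pairs with a RefSeq chromosome, 1754 lay on the same one. Deviations of same-numbered libraries correlated for CTL and GAL (0.26, 0.26 and 0.60) but in no other pair of groups. The alternatives were DESeq2 1.42.0, its size factors, total counts, no filter, filterByExpr, removal of invariable genes, contrast groups only, a replicate block, no fold threshold and each library left out. A block of CTL and GAL only, and the fit without replicate 3 of CTL and GAL, were added after seeing the data. Promoters are RefSeq windows on GRCr8, and no genome was used.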

Additional observations from a re-analysis of the deposited data

How the results depend on the processing

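All 4 genes were called in both cytokine contrasts under all 21 alternatives. In CTK-2 against CTL the log2 fold change ranged from 4.15 to 4.76 for Tnfaip3, 2.36 to 2.56 for Nfkbia, 3.32 to 3.57 for Vcam1 and 0.73 to 0.90 for Traf2. Of the 30 listed NF-κB genes, 29 to 30 were called there and 28 to 30 in CTK2+GAL against GAL. With no fold threshold, 5213 and 5290 genes passed in these contrasts, in place of 2311 and 2324.

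The near-zero values of the galinex contrasts changed sign without any call. For Tnfaip3 in GAL against CTL the log2 fold change was 0.027 in the fit of these groups only, 0.087 with the replicate block of CTL and GAL, and 0.28 without replicate 3 of both. The interaction of Nfkbia was 0.0014 with no filter and 0.011 without these libraries. With no filter, 2 genes were called in GAL against CTL and 4 in the interaction, and without replicate 3 of CTL and GAL 3 and 6, none of them a listed NF-κB gene, while 0 were called in either contrast with any 1 library left out. With each library left out in turn, GAL against CTL ranged from -0.29 to 0.31 for Tnfaip3, 0.032 to 0.29 for Nfkbia, -0.19 to 0.12 for Vcam1 and -0.23 to 0.086 for Traf2, and CTK2+GAL against CTK-2 from -0.11 to 0.045 for Vcam1. The interaction ranged from -0.37 to 0.24 for Tnfaip3, -0.14 to 0.12 for Nfkbia, -0.15 to 0.17 for Vcam1 and 0.064 (without GAL replicate 2) to 0.38 (without GAL replicate 3) for Traf2. The replicate blocks changed no other call of the 4 genes or of the list. The cause of these changes was not tested. Symbols limit the lists to genes that the study had called, and the low counts of Tnfaip3, Vcam1 and Bcl3 without cytokines limit what galinex alone could show.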
